A study of Mus musculus with 12 samples.

Results

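The renin-angiotensin system was followed through 9 genes, chosen by name from the 43346 genes of a mouse kidney expression table. They were Agt, Ren1, Atp6ap2, Ace, Enpep, Mme, Agtr1a, Agtr1b and Mas1, and each name matched 1 row. Messenger RNA had been read in 12 mouse kidney libraries taken at day 1. The sham group held libraries 1 to 6 and the HP-AKI group held libraries 7, 8, 9, 11, 12 and 13, and HP-AKI is printed here as labelled, with AKI standing for acute kidney injury. The strain, sex and age of the mice, the content of the sham procedure and the agent behind HP-AKI are not given in the sources used here. Whether each library is another animal is not given either, so p-values speak for the spread among these libraries alone, which could be technical.

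In this hormone system the protease renin, made by juxtaglomerular cells of the afferent arteriole, cuts angiotensinogen to angiotensin I, and angiotensin-converting enzyme trims that peptide to angiotensin II. Angiotensin II acts through the type 1 receptor to constrict vessels and retain sodium, and through the same receptor it lowers renin release. The proximal tubule holds its own set of these parts: angiotensinogen, angiotensin receptors, and in its brush border the peptidases that make and destroy angiotensin peptides. Mice have a pair of type 1 receptor genes, Agtr1a and Agtr1b, the former being the main one in kidney.

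The coding stretches below show what links the substrate to its enzymes, and come from the GENCODE vM21 transcripts of GRCm38. The first is the run of 10 codons of Agt exon 2 for angiotensin I (chr8:124564450-124564479, minus strand), with the 8 codons of angiotensin II in capitals.
Agt: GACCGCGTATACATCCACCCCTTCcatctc
Renin is an aspartic protease, and the pair of catalytic aspartates are capitalised in its Asp-Thr-Gly codons in exon 3 (chr1:133354862-133354870, plus strand) and exon 7 (chr1:133358993-133359001, plus strand).
Ren1 exon 3: GACacgggt
Ren1 exon 7: GACactggt
Ace, Mme and Enpep are zinc peptidases that share the pattern His-Glu, any residue, any residue, His. Its fixed codons are in capitals. Ace holds it in exon 8 (chr11:105972910-105972924, plus strand) and again in exon 20 (chr11:105985094-105985108, plus strand), 1 for each domain of the enzyme. Mme holds it in exon 18 (chr3:63362021-63362035, plus strand) and Enpep in exon 5 (chr3:129309772-129309786, minus strand).
Ace exon 8: CACGAGatgggcCAC
Ace exon 20: CACGAAatgggcCAC
Mme exon 18: CATGAAatcacaCAT
Enpep exon 5: CACGAActtgtaCAC

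The listed genes lie apart on GRCm38. Ren1 (ENSMUSG00000070645) lies on chromosome 1 from 133350510 to 133360325, Agt (ENSMUSG00000031980) on chromosome 8 from 124556534 to 124569706, and Atp6ap2 (ENSMUSG00000031007) on chromosome X from 12587801 to 12617049. Ace (ENSMUSG00000020681) lies on chromosome 11 from 105967945 to 105989964. Chromosome 3 holds Agtr1b (ENSMUSG00000054988, 20314473 to 20367177), Mme (ENSMUSG00000027820, 63241537 to 63386030) and Enpep (ENSMUSG00000028024, 129269175 to 129332720). Agtr1a (ENSMUSG00000049115) lies on chromosome 13 from 30336441 to 30382867 and Mas1 (ENSMUSG00000068037) on chromosome 17 from 12841079 to 12868143. All 9 are protein-coding.

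Depth was 35201197 to 41951129 counts assigned to genes in sham and 31624522 to 40630917 in HP-AKI. Levels are given as CPM, counts scaled to a common library total after TMM scaling, and log2 fold changes are HP-AKI over sham. The call was an adjusted p below 0.05 in edgeR, and it was met by 72.8% of the 17470 genes that could be tested, 35.2% lower and 37.7% higher in HP-AKI, and in 52.4% the groups did not overlap. Their median log2 fold change was 0.04. All 12 proximal tubule and all 6 podocyte genes of the lists were high enough to test. So were all 6 fat genes, so passing the filter alone does not identify the tissue. In sham the summed levels were 17894 to 19047 CPM for proximal tubule, 464 to 623 for podocyte and 0.364 to 24.9 for fat genes. On the second principal component, which held 7.85% of the variance, sham 1 (-29.2), sham 2 (-45.1) and HP-AKI 8 (-45.6) were the 3 lowest libraries. HP-AKI 9 was next at -16.3, so these 3 were not clearly set apart. Without these 3 libraries 7 tested members were still called lower and 1 higher, and the values without them for Agt, Ren1 and Atp6ap2 stand with those genes. For the others the log2 fold change without them was -1.16 for Ace, -0.97 for Enpep, -1.81 for Mme, -1.53 for Agtr1a and -1.56 for Mas1.

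Renin rose while the other 7 tested members fell. Ren1 was the 1 member higher in HP-AKI, and Agt, Ace, Agtr1a, Atp6ap2, Mme, Enpep and Mas1 were lower. Their median log2 fold change was -1.02, and in 6 of the 8 the groups did not overlap. The falls ran from 1.19-fold for Atp6ap2 to 3.59-fold for Mme. Agtr1b was too rare to test, so 8 of the 9 members passed the filter on low counts. The shares given above for all tested genes are the background for these counts: a called difference was common among all genes. Under the 20 processing alternatives run, 6 or 7 members were called lower and 1 higher.

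**Figure D1:**
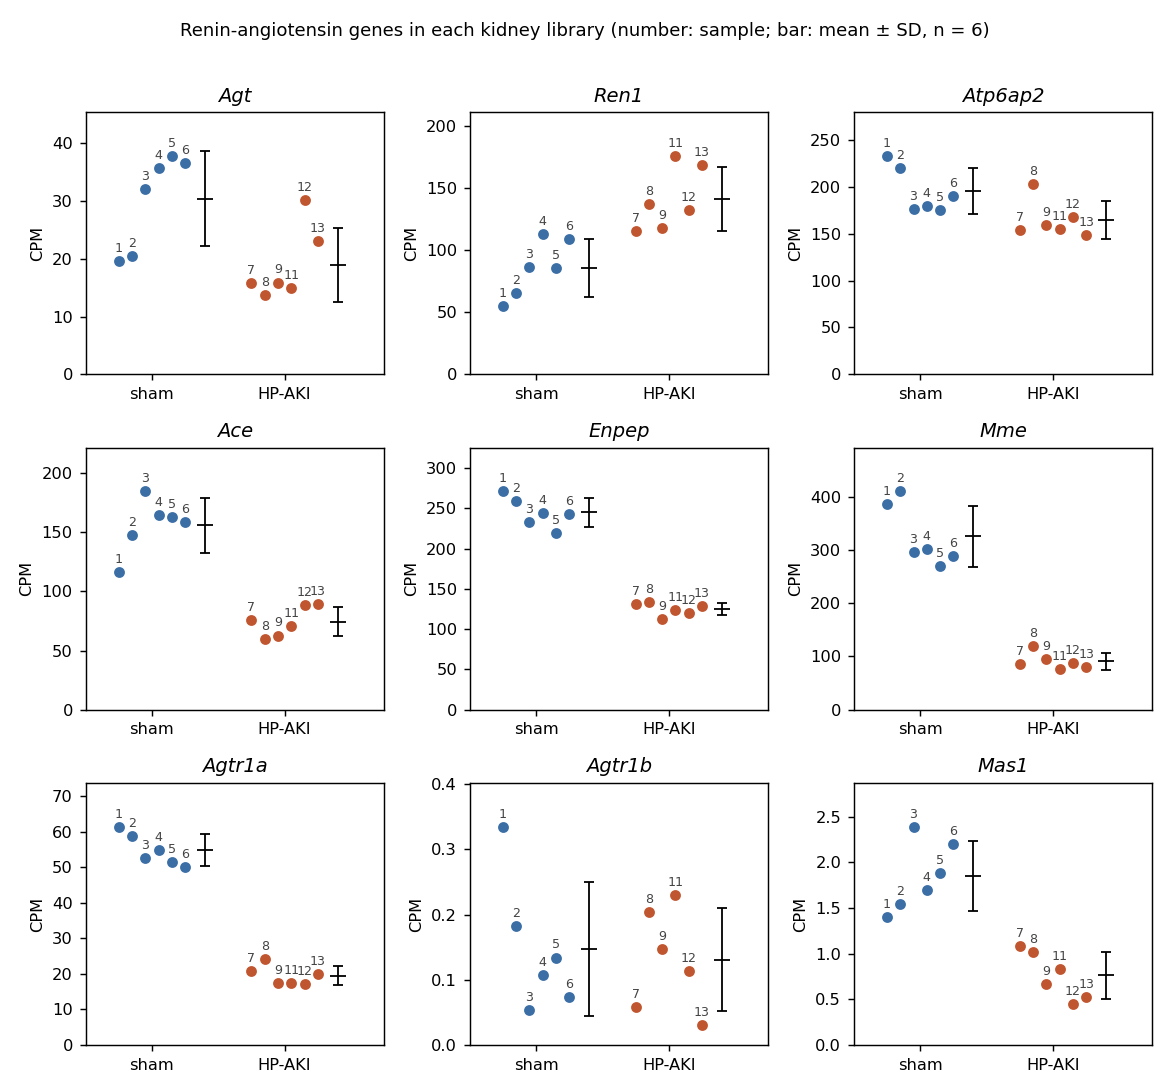
Level in CPM of each of the 9 members in each library, with the sample number beside each point and the mean ± SD (n = 6) as a bar. Ren1 is the member with all 6 HP-AKI points above the sham points, while Mme, Enpep, Ace, Agtr1a and Mas1 have all HP-AKI points below them.

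Agt encodes angiotensinogen, the source of every angiotensin peptide. Its level was 19.6 CPM in the lowest, 33.9 in the median and 37.8 in the highest sham library, and 13.8, 15.8 and 30.2 CPM in HP-AKI. The groups overlapped: sham 1 and sham 2 (19.6 and 20.5 CPM) lay below HP-AKI 12 and HP-AKI 13 (30.2 and 23.0 CPM). The fall was 0.68 ± 0.22 (SE) on the log2 scale, 1.61-fold, at an adjusted p of 0.0105 (log2 fold change -0.68). Without sham 1, sham 2 and HP-AKI 8 it was -0.88 at an adjusted p of 5.64e-04.

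Ren1 encodes renin, the protease that starts the cascade. It ran from 55.0 CPM in sham 1 through a median of 85.7 to 113 CPM in sham 4, and from 115 CPM in HP-AKI 7 through 135 to 175 CPM in HP-AKI 11. The groups did not overlap, but the highest sham and the lowest HP-AKI library were close. The rise was 0.72 ± 0.17 (SE) on the log2 scale, 1.65-fold, with an adjusted p of 0.00130. Without sham 1, sham 2 and HP-AKI 8 it was smaller, 0.49 ± 0.14 (SE), and still passed at an adjusted p of 0.00565. Some mouse strains carry a further, near-identical renin gene, and since the strain is not given, reads from such a gene could be counted under Ren1.

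Ren1 and Agt both have TATAAA, the classic core promoter element, close before their RefSeq start (GRCm38.p6), and the 30 bases around it are shown because these are the enzyme and the substrate that went in opposite directions. The motif, in capitals, begins 29 bases before the start in Ren1 (chr1:133350633-133350662, plus strand) and 30 bases before it in Agt (chr8:124569719-124569748, minus strand).
Ren1: atacatggtgtgTATAAAagaaggctcagg
Agt: ccaccccttgagTATAAAtaagcctgcttg
Searched on both strands in the 250 bases before a start, TATAAA was present in 12.4% of 32851 promoters in the RefSeq table. Of the members with a promoter in that table, Agtr1b also had it on the coding strand, 31 bases before its start, and Ace and Enpep had it on the opposite strand. A match is a description of letters and does not show a site in use.

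Atp6ap2 encodes the prorenin receptor, which is also an accessory subunit of the V-ATPase proton pump. It was 175 CPM in the lowest, 185 in the median and 233 in the highest sham library and 148, 157 and 203 CPM in HP-AKI. The groups overlapped, with sham 1 and HP-AKI 8 the highest of each. The fall of 0.25 ± 0.10 (SE) on the log2 scale was the smallest of the members, at an adjusted p of 0.0318. The call lay close to the threshold: without sham 1, sham 2, HP-AKI 7, HP-AKI 11 or HP-AKI 13 the log2 fold change was -0.24 to -0.20 and the adjusted p 0.0514 to 0.0707. Without HP-AKI 8 it was -0.34 (adjusted p 0.00149), and without sham 1, sham 2 and HP-AKI 8 together it was -0.24 (adjusted p 0.00234). Scaling by library size alone gave -0.13 (adjusted p 0.196). Set against the mean of 19 V-ATPase subunits within each library, Atp6ap2 showed no difference that passed the test. That log2 ratio was 0.47 ± 0.17 (SD, n = 6) in sham and 0.50 ± 0.22 (SD, n = 6) in HP-AKI, and the difference of 0.030 had an exact permutation p of 0.820 (two-sided; adjusted p 0.820).

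The subunits themselves moved apart: 2 rose, 8 fell and 9 did not pass, with a median of -0.13. Among all tested genes 37.7% were higher and 35.2% lower. Atp6v0a1, a widely expressed membrane subunit, rose by 1.21 on the log2 scale. Of 4 subunits known from acid-secreting intercalated cells, Atp6v1b1 had a log2 fold change of -2.18, Atp6v0a4 one of -1.18 and Atp6v0d2 one of -0.48, while Atp6v1g3 (-0.038, adjusted p 0.776) did not pass. The catalytic subunit Atp6v1a, the most abundant, went from 918 ± 80.9 CPM (SD, n = 6) in sham to 444 ± 32.0 CPM in HP-AKI.

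Ace encodes the converting enzyme that makes angiotensin II, found on endothelium and on the proximal tubule brush border. It ran from 116 CPM in sham 1 through 161 to 185 CPM in sham 3, and from 59.8 CPM in HP-AKI 8 through 73.4 to 89.0 CPM in HP-AKI 13, so every HP-AKI library lay below every sham library. The log2 fold change was -1.07 ± 0.12 (SE), 2.09-fold lower, with an adjusted p of 1.41e-06. The antisense gene Gm11651 shares 295 exonic bases with Ace, and the kit does not mark strand, so their reads cannot be told apart there, but Gm11651 was listed with 0 counts in every library.

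Enpep encodes aminopeptidase A, which turns angiotensin II into angiotensin III. It lay between 219 and 271 CPM (median 244) in sham and between 112 and 134 CPM (median 126) in HP-AKI. The spread within each group was small, at 7.47% of the mean in sham and 6.34% in HP-AKI, and the groups stood well apart. The log2 fold change was -0.97 ± 0.07 (SE), 1.96-fold lower, with an adjusted p of 9.30e-09.

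Mme encodes neprilysin, which clips angiotensin I to the vasodilator heptapeptide that Mas1 receives and also breaks down natriuretic peptides and bradykinin. It was 270.2 CPM in the lowest, 299.6 in the median and 411 in the highest sham library, and 76.0, 86.6 and 119 CPM in HP-AKI. This was the deepest fall among the members, with no overlap: -1.84 ± 0.13 (SE), 3.59-fold lower, at an adjusted p of 6.02e-09. Mme fell further than Enpep within the libraries, the log2 ratio of the one to the other going from 0.40 ± 0.16 (SD, n = 6) to -0.47 ± 0.23 (SD, n = 6). The difference of -0.87 had an exact permutation p of 0.00216 (two-sided, adjusted p 0.00433), the smallest that this design can give.

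Agtr1a encodes the main type 1 angiotensin receptor of the mouse kidney, present in tubules, mesangium and vessels. It lay between 50.1 and 61.3 CPM (median 53.6) in sham and between 17.2 and 24.1 CPM (median 18.7) in HP-AKI, without overlap. The log2 fold change was -1.49 ± 0.10 (SE), 2.82-fold lower, with an adjusted p of 2.17e-09.

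Agtr1b, the receptor copy known chiefly from the adrenal gland, gave 31 counts over the 6 sham and 30 over the 6 HP-AKI libraries, from 1 count in HP-AKI 13 to 11 in sham 1. The ratio of HP-AKI to sham was 0.960 with an exact 95% interval of 0.561 to 1.64, which covers counting error only. These counts showed no difference, and ratios within that interval remained possible. Transcripts of Agtr1b shared 1.54% of their runs of 50 bases with Agtr1a. Some reads of that far more abundant copy could therefore be counted under Agtr1b. How many is not bounded by this share, because it also depends on the level of Agtr1a, and was not tested. The ratio given next has the same limit. The log2 ratio of Agtr1a to Agtr1b went from 8.63 ± 0.77 (SD, n = 6) to 7.29 ± 0.98 (SD, n = 6), a difference of -1.34 with an exact permutation p of 0.0238 (two-sided, adjusted p 0.0340). This call was lost on leaving out sham 3, 4, 5 or 6 or HP-AKI 8, 9, 11 or 12, at adjusted p-values of 0.0588 to 0.0742 and differences of -1.38 to -1.12.

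Mas1 encodes the receptor of the vasodilator heptapeptide. It was rare, with 410 counts over the sham group and 168 over the HP-AKI group. Its level was 1.40 CPM in the lowest, 1.79 in the median and 2.39 in the highest sham library and 0.452, 0.746 and 1.08 CPM in HP-AKI. Every HP-AKI library lay below every sham library, and the log2 fold change was -1.28 ± 0.23 (SE), 2.43-fold lower, with an adjusted p of 1.08e-04. Airn, a long noncoding RNA on the opposite strand that runs through the same interval without a shared exon, also fell by 1.71 on the log2 scale (adjusted p 3.74e-08). Reads of unspliced Airn cannot be told apart from those of Mas1 without the strand.

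Per kilobase of listed gene length, the order of levels changed at the top. In sham Atp6ap2 led at 74.8 ± 9.45 (SD, n = 6) CPM per kilobase, followed by Enpep at 52.1 ± 3.89 and Ren1 at 51.6 ± 13.9, which did not differ beyond their spread. Ace (29.5 ± 4.33) and Mme (28.2 ± 5.02) were also alike, and Agtr1a (22.2 ± 1.77) and Agt (16.1 ± 4.36) came next. In HP-AKI Ren1 led at 85.1 ± 15.4 CPM per kilobase, ahead of Atp6ap2 at 63.0 ± 7.64 and Enpep at 26.6 ± 1.68. Ace stood at 14.1 ± 2.35 and Agt at 10.02 ± 3.39, and Agtr1a (7.89 ± 1.11) and Mme (7.87 ± 1.33) did not differ beyond their spread. Mas1, at 0.707 ± 0.146 in sham and 0.291 ± 0.0990 in HP-AKI, and Agtr1b, at 0.0687 ± 0.0477 and 0.0609 ± 0.0368, were lowest in both groups.

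**Figure D2:**
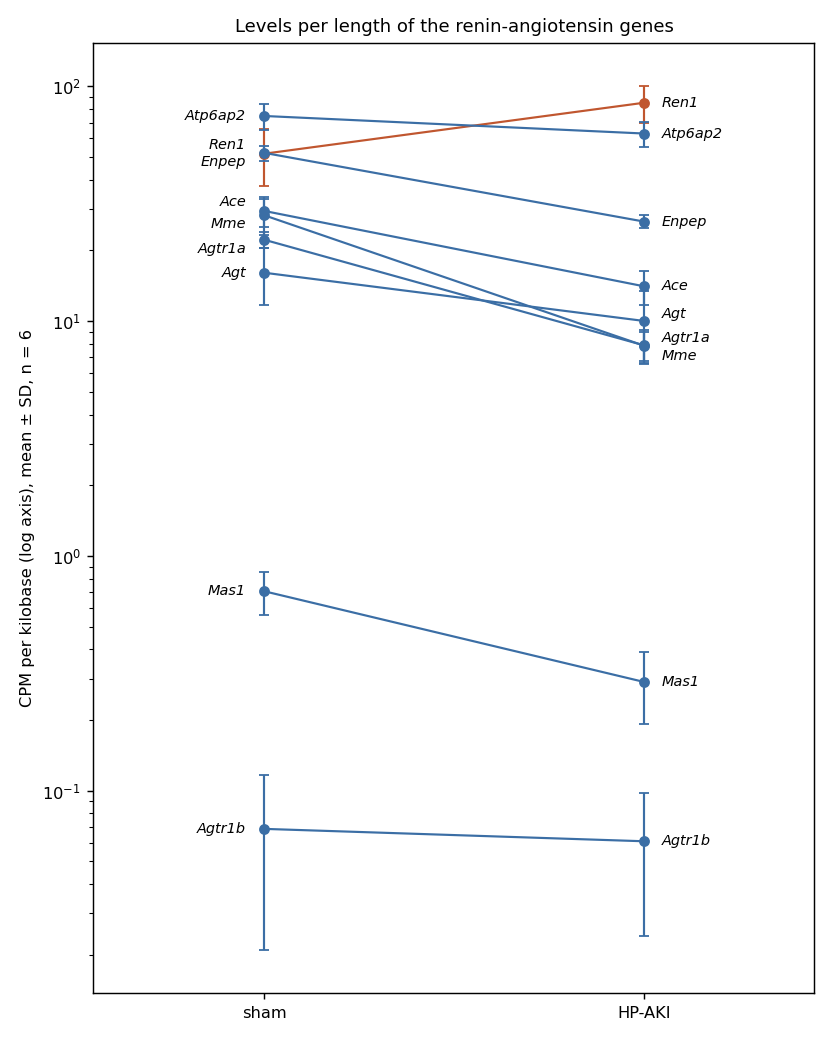
Mean level of each member in CPM per kilobase of listed gene length (log axis) in sham and HP-AKI, with the SD over 6 libraries. Ren1, drawn in orange because its mean was higher in HP-AKI, crosses Atp6ap2 to the top, and the other 8 lines, drawn in blue, slope down.

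Agt, Enpep, Ace and Agtr1a fell less than the mean of the proximal tubule markers. All 12 proximal tubule markers fell, with a median log2 fold change of -2.26, and their summed level went from 17894 to 19047 CPM in sham to 3443 to 4950.3 CPM in HP-AKI. Single markers ran from -3.23 for Cubn to -1.22 for Slc5a2, which fell less than Agtr1a (-1.49). Ace and Agtr1a are also found outside this tubule, as given above. In bulk kidney, fewer cells of a type and less RNA per cell cannot be told apart. Within each library the log2 ratio of a member to the mean of these 12 markers was compared between the groups, among 10 ratios in all, with p-values adjusted over the 10. Relative to the markers, Agt was higher in HP-AKI by 1.58, Enpep by 1.30, Ace by 1.21 and Agtr1a by 0.77 on the log2 scale. In each of these 4 the groups did not overlap (exact permutation p 0.00216, two-sided, adjusted p 0.00433). For Mme the difference was 0.43 with overlapping groups (exact permutation p 0.0281, adjusted p 0.0352). The Mme call was lost without any 1 of sham 3, 4, 5 or 6 or HP-AKI 7, 8, 9 or 11, where the difference was 0.34 to 0.46 and the adjusted p 0.0541 to 0.0785.

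**Figure D3:**
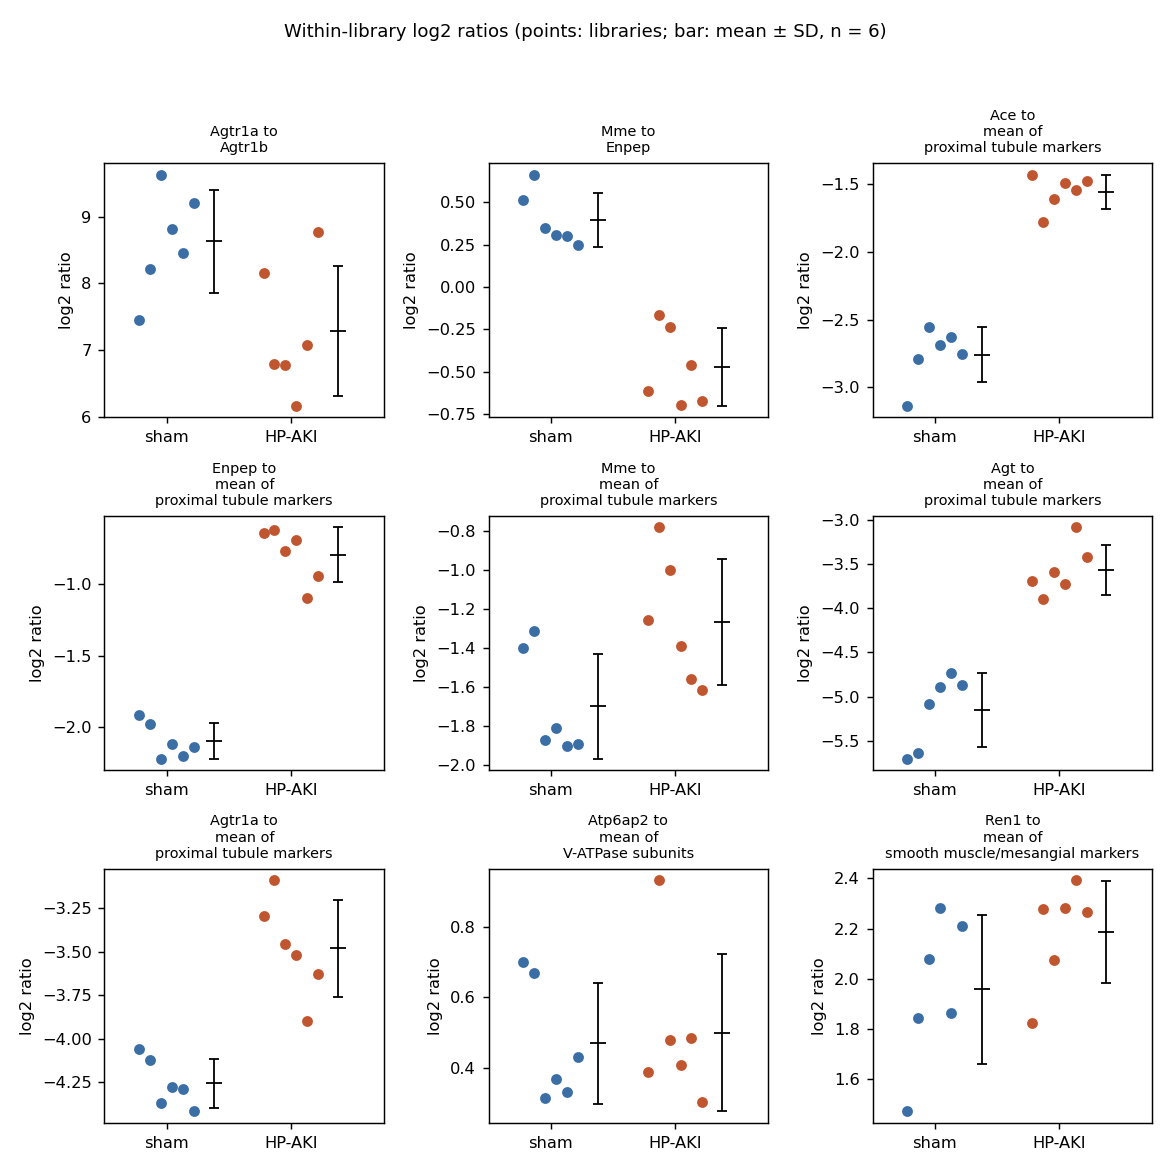
Log2 ratios within each library between a member and another gene or the mean of a list, with points for libraries and a bar for the mean ± SD (n = 6). Ace, Enpep, Agt and Agtr1a rise against the proximal tubule markers without overlap, Mme falls against Enpep, and Atp6ap2 against the V-ATPase subunits overlaps between the groups.

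A list of 21 further genes that make, break, bind or receive angiotensin or kinin peptides was also followed, of which 14 could be tested. Of these, 5 rose, 7 fell and 2 did not pass, beside 37.7% higher and 35.2% lower among all tested genes. Their median was -0.35, beside 0.04. The falls included those of Cltrn, collectrin, which carries amino acid transporters to the brush border, Anpep, aminopeptidase N, Agtrap, a protein that binds and internalises the type 1 receptor, and the peptidases Prcp, Ctsa and Rnpep. Cltrn went from 2823 ± 576 CPM (SD, n = 6) in sham to 658 ± 91.7 CPM in HP-AKI, and Anpep from 129.5 ± 24.96 to 33.2 ± 5.32 CPM. Agtrap fell by 0.98 on the log2 scale.

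The 5 rises were those of Bdkrb2, Klk1, Kng1, Prep and Nln, a share near that of all tested genes. Bdkrb2, the bradykinin receptor, rose from 0.394 ± 0.183 CPM (SD, n = 6) in sham to 5.86 ± 0.926 CPM in HP-AKI, or by 3.87 ± 0.26 (SE) on the log2 scale. Klk1, tissue kallikrein, which has many near-identical relatives, rose by 0.63, and Kng1, the kininogen substrate, by 0.92. The oligopeptidases Prep and Nln rose by 0.74 and 0.46. Lnpep (-0.02) and Thop1 (0.00) did not pass. Agtr2, the type 2 angiotensin receptor, gave 38 counts in sham and 7 in HP-AKI and was not tested. The mast cell proteases that can also make angiotensin II were near 0, with Cma1 at 5 and 1 counts and Mcpt4 at 4 and 0 counts in sham and HP-AKI.

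**Figure D4:**
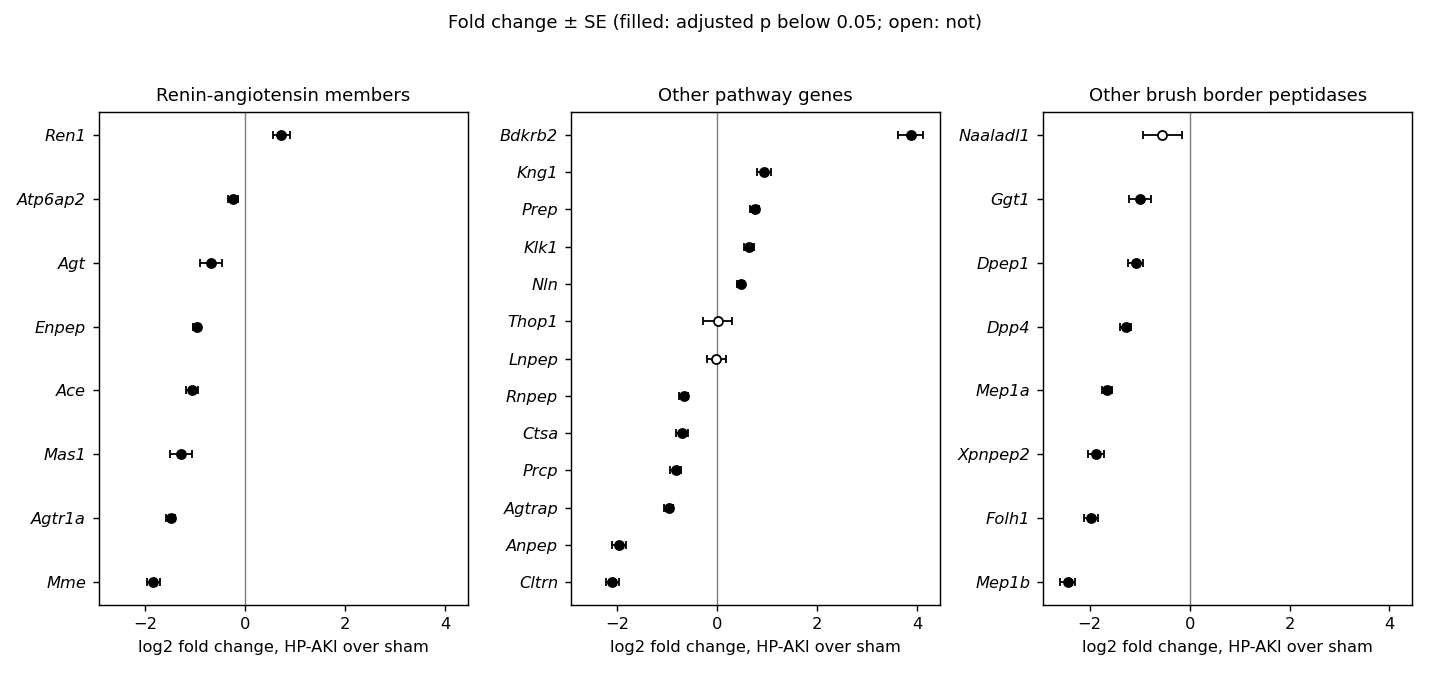
Log2 fold change of HP-AKI over sham with its SE for the 8 tested members, further tested genes of the pathway and 8 other brush border peptidases, filled where the adjusted p is below 0.05. Ren1 (0.72) is the member to the right of 0, and the brush border panel lies wholly to the left.

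Other peptidases of the brush border fell as Ace, Mme and Enpep did. Of 8 listed, 7 fell and Naaladl1 (-0.55) did not pass, with a median of -1.47, beside 35.2% lower among all tested genes. Mep1b, a meprin subunit, had a log2 fold change of -2.44, Folh1 one of -1.97 and Xpnpep2 one of -1.87. The most abundant, Mep1a, went from 2558 ± 265 CPM (SD, n = 6) in sham to 810.03 ± 102 CPM in HP-AKI.

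Around renin, genes of the juxtaglomerular cell and the macula densa went both ways. Of 18 tested, 7 rose, 8 fell and 3 did not pass, beside 37.7% higher and 35.2% lower among all tested genes. Their median was 0.08, beside 0.04, so the list as a whole lay near that background. Ptgs2, the prostaglandin-forming enzyme by which the macula densa calls for renin, rose from 1.81 ± 0.891 CPM (SD, n = 6) in sham to 23.3 ± 7.05 CPM in HP-AKI. Bulk kidney does not show in which cells it rose. On the same list Nos1 (0.28) did not pass and Pappa2 fell by 0.74 on the log2 scale. Ptger4, a prostaglandin receptor of renin cells, rose by 1.74, and Adora1, the adenosine receptor that restrains renin release, by 2.06 on the log2 scale. Akr1b7, an enzyme that marks renin cells, rose by 1.42, from 4.57 ± 0.543 to 12.2 ± 4.97 CPM, with overlapping groups. Casr and Vdr, the calcium and vitamin D receptors, both known to hold renin down, fell by 1.88 and 1.51, but both are also abundant in tubules. Adrb1, the adrenergic receptor that drives renin release, fell by 0.81, and Gja5, the gap junction protein of renin cells, did not pass (-0.10).

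Markers of smooth muscle and mesangium, the lineage next to the renin cell, went both ways. Of 9 tested, 5 rose, 2 fell and 2 did not pass, with a median of 0.91, beside 37.7% higher and a median of 0.04 among all tested genes. Their summed level went from 232 to 297 CPM in sham to 459 to 666 CPM in HP-AKI. Tagln rose by 2.18 and Serpine2 by 1.80, while Itga8 (-1.67) and Myh11 (-0.47) fell, and Cnn1 (-0.42) and Gata3 (-0.24) did not pass. The log2 ratio of Ren1 to their mean was 1.96 ± 0.30 (SD, n = 6) in sham and 2.19 ± 0.20 (SD, n = 6) in HP-AKI, and the difference of 0.23 did not pass (exact permutation p 0.149, two-sided, adjusted p 0.166). Without sham 1, sham 2 and HP-AKI 8 the difference was 0.060 (adjusted p 0.675). The ratio cannot show the part of these cells in the Ren1 rise, because the markers in its mean went both ways. That part was not tested.

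Regulators of Agt and the acute phase genes, a class that includes Agt in liver, mostly went the other way from Agt. Of 18 tested, 15 rose and 3 fell, with a median of 3.27, beside 37.7% higher and 35.2% lower among all tested genes. Lcn2 rose by 9.91, Saa3 by 6.61 and Il6 by 6.50 on the log2 scale. Among those that fell were Hnf4a, a liver and proximal tubule factor, with a log2 fold change of -2.36, and Nr3c1, the glucocorticoid receptor, with one of -0.72.

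Of 17 genes of mineralocorticoid action and sodium handling, the downstream arm of the system, 4 rose, 8 fell and 5 did not pass. Their median was -0.16. Among all tested genes 37.7% were higher and 35.2% lower. The rises were those of Per1 (2.45), Fkbp5 (1.85), Sgk1 (1.70) and Tsc22d3 (0.40), all 4 also known targets of glucocorticoids. Nr3c2, the mineralocorticoid receptor, fell by 0.70 and Hsd11b2, the enzyme that shields it from glucocorticoids, by 1.36. Of the sodium channel subunits, Scnn1g fell by 0.88, while Scnn1a (0.23) and Scnn1b (0.13) did not pass.

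Among the other cells that could carry these transcripts, 4 of 8 endothelial markers rose and 2 fell (median 0.28). For podocytes 4 of 6 markers rose and 2 fell (0.53), and for fibroblasts 3 of 6 rose and 1 fell (0.07). The shares among all tested genes were 37.7% higher and 35.2% lower. All 5 tested neutrophil markers rose (5.32), and their summed level was 1.94 to 3.66 CPM in sham and 19.0 to 157 CPM in HP-AKI. Of 6 macrophage markers 1 rose and 4 fell (-0.98), and of 3 tested lymphocyte markers 2 fell (-1.75). The macrophage marker that rose was Cd68, by 3.54 on the log2 scale, the largest change of that list. Of the adrenal list, Star alone could be tested and rose by 1.83, while Cyp11b1 and Cyp11b2, the defining cortical enzymes, had 1 count each in sham and 0 in HP-AKI. Of 6 fat markers 2 rose (0.55), with a summed level of 0.364 to 24.9 CPM in sham and 3.64 to 46.1 CPM in HP-AKI. Of the mast cell list, Hdc alone could be tested and rose by 3.29. The 5 not tested did not rise with it. Their counts in sham and HP-AKI were 16 and 14 for Cpa3, 5 and 1 for Cma1 and 4 and 0 for Mcpt4. Tpsb2 had 3 and 0, and Fcer1a 2 and 2. The part of these cells in the members' changes was not tested.

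Among the sham libraries, the sign of a tested member's difference went with the base composition of its transcript. Agt, Ace, Ren1 and Mas1, with 56.3%, 55.6%, 54.6% and 49.7% GC, were lower in sham 1 and sham 2 than in sham 3 to 6, by 0.83, 0.36, 0.71 and 0.46 on the log2 scale. Agtr1a, Enpep, Atp6ap2 and Mme, with 46.5%, 45.5%, 40.5% and 38.0% GC, were higher there, by 0.20, 0.17, 0.33 and 0.46. HP-AKI 8 showed the same signs against the other HP-AKI libraries in Agt (-0.48), Ace (-0.36), Agtr1a (0.38), Enpep (0.12), Atp6ap2 (0.37) and Mme (0.49), while Ren1 (-0.03) was level and Mas1 (0.59) went the other way. The part of base composition in these differences was not tested.

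**Figure D5:**
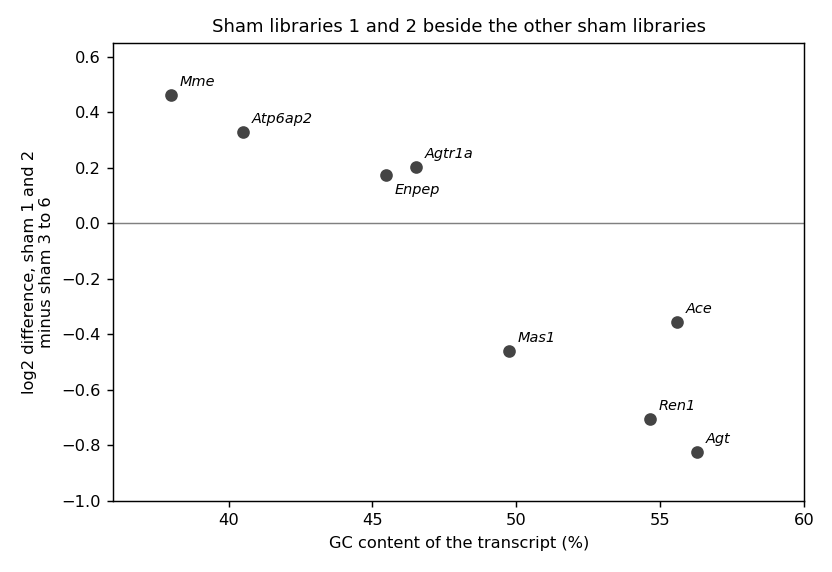
For the 8 tested members, the mean log2 CPM of sham 1 and 2 minus that of sham 3 to 6 against the GC content of the transcript with the longest coding sequence. The 4 members with the highest GC content (Agt, Ace, Ren1 and Mas1) lie below 0 and the other 4 above it.

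The genes whose levels followed a member most closely were sought among 14871 other protein-coding genes, by Pearson's r of log2 CPM over the 12 libraries after each group's mean was subtracted. These are the highest of many values and are given as a description. For Agt they were Lgmn (0.97), a lysosomal protease, Reep4 (0.97) and Acy3 (0.97). For Ace they were Gdpgp1 (0.97), Clptm1 (0.95) and Ranbp10 (0.94), and for Agtr1a Ppil6 (0.96), Ly75 (0.94) and Ms4a2 (0.94). For Ren1 the closest were Rltpr (0.92), Flna (0.91), the actin cross-linker filamin A, and Nipal3 (0.90). For Ren1, Agt and Ace, likeness within the groups did not always go with a like difference between them. Beside the rise of Ren1, Flna rose by 1.76, Nipal3 fell by 1.34 and Rltpr (-0.38) did not pass. Beside the fall of Agt, Lgmn (-0.24) and Acy3 (-1.87) fell and Reep4 rose by 1.69. Beside the fall of Ace, Clptm1 (-0.41) fell, while Gdpgp1 (-0.15) and Ranbp10 (0.04) did not pass. Ppil6 (-1.49), Ly75 (-0.38) and Ms4a2 (-1.54) all fell, as Agtr1a did.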

How the data were processed

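The deposited table gave 2 columns for each of 12 samples, raw whole-number counts per gene made by the authors and RPKM values made by the authors. Per the submitters' processing notes, the build was GRCm38 and the tools were featureCounts, edgeR and TopHat2 2.1.0, with no roles or settings given, and per the labels the kit was TruSeq RNA v2. The deposited RPKM values implied sample totals of 2.97 to 3.47 times the summed counts and were used for nothing else. Here the raw counts went into edgeR 4.0.16 under R 4.3.3: filterByExpr, TMM, quasi-likelihood F-test, two-sided, Benjamini-Hochberg over 17470 genes. Each SE was obtained by dividing the absolute log2 fold change by the square root of F. Ratios used log2 CPM with 0.5 counts added and an exact permutation test over all assignments of the libraries. Cltrn and Adgre1 were matched by identifier. Alternatives were other scalings, filters, DESeq2 1.42.0, limma-voom (limma 3.58.1), and libraries left out. In simulated data of 17038 tested genes, only 67, 67 and 66 genes were given true log2 changes of 0.5, 1 and 2. The same spread was set for every gene. There edgeR recovered 44.8%, 100% and 100% of these changes, and 4.68% of its calls were unchanged genes. In the real data 72.8% of genes were called, so these rates do not carry over to them.

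The members, lists and tests were chosen with earlier results of these data known, so their counts are no independent evidence. The rule named all 9 members and, from each other list, the 3 called genes with the largest change and the one with the highest mean. Some genes it names are not reported here, although they stay in the counts and medians of their lists and in the number of ratios, and others on the lists were named after their values were seen. Hnf4a, Cma1, Cpa3 and Mcpt4 stand in 2 lists. The groups share no sample numbers, and the labels name no batch. Any 2 libraries differed in at least 95.9% of the genes with a count in either.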

Additional observations from a re-analysis of the deposited data

Results flagged for a closer look

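Of 38 sets of 6 library values examined, 2 held a library whose gap to its nearest neighbour was large against the whole range, where chance gives about 1 in 20. Both concern HP-AKI 8 and Atp6ap2. Its level there, 203 CPM, stood above the other HP-AKI libraries, with a gap of 0.642 of the range. Its log2 ratio to the mean of the V-ATPase subunits, 0.93, did so with a gap of 0.710 of the range.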

How the results depend on the processing

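Of 160 combinations of a tested member and 1 of 20 alternatives, 154 kept direction and call, and the 6 that lost the call all concern Atp6ap2: library size only (-0.13), and 5 libraries left out in turn. Leaving out single libraries gave -0.34 to -0.20 for Atp6ap2, with 6 or 7 members called lower and 1 higher. It gave 0.61 to 0.81 for Ren1, -0.89 to -0.62 for Agt, -1.15 to -1.02 for Ace, -1.59 to -1.47 for Agtr1a, -1.96 to -1.77 for Mme, -1.02 to -0.95 for Enpep and -1.42 to -1.19 for Mas1. Of 140 combinations of a ratio and an alternative, 16 lost the call, all with single libraries left out: Agtr1a to Agtr1b (-1.64 to -1.12) and Mme to the proximal tubule markers (0.34 to 0.51). Leaving out a library also lowers the number of assignments. The ratio of Atp6ap2 to the V-ATPase subunits, which never passed, changed sign in 2 (-0.057 to 0.076), without sham 3 and without HP-AKI 8. No paired analysis was possible because the groups share no sample numbers. Depth limits Agtr1b and Agtr2, which were too rare to test; without the filter Agtr1b had a log2 fold change of -0.14 (adjusted p 0.835).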
